A study of Mus musculus with 8 samples.

Results

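The genes described here are 10 markers of the mural cells of blood vessels, taken by name from a table of RNAseq counts for 54532 genes. They comprise 4 contractile genes of smooth muscle (Acta2, Myh11, Tagln and Cnn1), 5 genes used to recognise pericytes (Rgs5, Pdgfrb, Cspg4, Kcnj8 and Abcc9), and Des, which both cell types and striated muscle express. Their counts come from 8 libraries made from GFP+ (mG+) cells, which were sorted by FACS out of tissues of females at 8 months of age. The sort was meant for endothelial cells (EC), which are not defined by these genes.

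WT cells came from Tie2e-cre; TERT+/+; mTmG mice and KO cells from Tie2e-cre; TERTfl/fl; mTmG mice (EC-Tert-KO). Both genotypes thus carried the Tie2-driven Cre and the mTmG reporter, which turns from membrane Tomato to membrane GFP where Cre has acted. Tie2 is also active in a part of the hematopoietic cells, so a GFP+ cell need not be an EC. The 4 pairs of libraries, WT and KO in each, were subcutaneous adipose tissue (SAT) of mice fed a high-fat diet (HFD), and, from chow-fed mice, SAT, visceral adipose tissue (VAT) and the gastrocnemius, a calf muscle. Each group had 1 library, and pooling of mice was not stated. Differences within a pair therefore compare 2 libraries, and their intervals cover counting error only. Fewer cells of a type and less RNA per cell cannot be told apart in such bulk samples.

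Pericytes and smooth muscle cells share the outer wall of vessels. Smooth muscle cells wrap arteries and veins and contract through actin and myosin, whereas pericytes lie on capillaries inside the basement membrane. EC recruit both by secreting PDGF-B, which binds PDGF receptor beta, the product of Pdgfrb. In adipose tissue and muscle, mural cells set vessel tone, and some also have properties of progenitor cells.

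Library totals ranged from 6214269 counts in WT SAT on HFD to 18855772 in WT SAT on chow. Tert, the targeted gene, had 114 counts in WT and 0 in KO of SAT on HFD, 70 and 11 in chow-fed SAT, and 24 and 7 in muscle. In VAT, Tert was not lower under the KO label. The library labelled WT had 3 counts of 9389345 and the library labelled KO had 9 of 14344720. Counts this low cannot settle the labels, so every direction drawn from VAT rests on the labels as given. WT SAT on chow stood apart in Malat1, at 292 CPM (counts scaled to library size) against at least 2149 CPM in the other libraries, and WT SAT on HFD had 9.72% of its counts on Gm26917 against at most 1.07% elsewhere. EC markers were all detected: none of the 14 was at 0 in any library, and their sum ranged from 413 CPM in KO SAT on HFD to 3049 CPM in KO muscle.

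Promoters of 4 members are shown because they belong to the gene of each role with the highest median level per kb (Acta2 and Rgs5) and to a pair of neighbouring channel genes whose levels parted in SAT (Kcnj8 and Abcc9). Each runs from 250 bases before to 50 bases after the annotated start, 5′ to 3′, from RefSeq on GRCm38.p6. Of the 10 members, 7 were matched and printable here; Myh11 and Tagln had no entry, and Pdgfrb was not used. Capitals mark matches on either strand to the CArG box, the site of serum response factor, with 1 mismatch allowed in its core.
Acta2, chr19:34255324-34255623, minus strand: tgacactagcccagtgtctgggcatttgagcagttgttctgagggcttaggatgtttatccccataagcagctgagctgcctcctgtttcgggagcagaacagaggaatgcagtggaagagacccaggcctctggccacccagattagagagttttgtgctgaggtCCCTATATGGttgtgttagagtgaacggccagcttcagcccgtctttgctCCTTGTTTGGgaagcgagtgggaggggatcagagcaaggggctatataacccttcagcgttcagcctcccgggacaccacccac
Rgs5, chr1:169655251-169655550, plus strand: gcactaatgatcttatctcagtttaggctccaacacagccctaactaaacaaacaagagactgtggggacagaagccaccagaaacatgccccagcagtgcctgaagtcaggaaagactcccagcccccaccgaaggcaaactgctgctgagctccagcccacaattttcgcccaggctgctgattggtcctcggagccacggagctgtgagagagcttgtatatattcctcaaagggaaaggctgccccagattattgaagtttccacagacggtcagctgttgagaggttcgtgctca
Kcnj8, chr6:142571565-142571864, minus strand: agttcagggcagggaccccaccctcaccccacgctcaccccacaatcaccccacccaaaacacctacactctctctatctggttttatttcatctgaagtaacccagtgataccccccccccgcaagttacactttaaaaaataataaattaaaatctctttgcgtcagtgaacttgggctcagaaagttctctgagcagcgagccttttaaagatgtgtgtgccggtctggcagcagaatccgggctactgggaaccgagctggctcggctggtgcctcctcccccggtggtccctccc
Abcc9, chr6:142702225-142702524, minus strand: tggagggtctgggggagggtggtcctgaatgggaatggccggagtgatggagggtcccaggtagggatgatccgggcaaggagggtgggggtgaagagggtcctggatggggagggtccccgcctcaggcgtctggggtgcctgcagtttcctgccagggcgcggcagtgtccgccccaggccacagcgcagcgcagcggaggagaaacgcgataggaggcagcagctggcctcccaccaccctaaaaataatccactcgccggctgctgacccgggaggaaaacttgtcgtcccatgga

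Acta2 held 2 such matches, starting 84 and 34 bases before the annotated RefSeq start. In the annotation of the counts, Acta2 begins at another base (chr19:34255336), so these distances hold for the RefSeq start only. Rgs5, Kcnj8, Abcc9, Cnn1, Cspg4 and Des held none in this window. The relaxed motif occurred in 9.98% of the 32851 promoters of the same length, and the exact CArG box in 1.63%. These letters are a description and do not show that a factor was bound.

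Acta2 encodes the smooth muscle alpha-actin that forms the thin filaments of contractile cells (chr19:34241090-34255336). Its level was 15.2 CPM in WT and 10.3 CPM in KO SAT on HFD, 22.0 and 37.8 CPM in SAT on chow, 24.9 and 138 CPM in VAT, and 34.7 and 117 CPM in muscle. KO was thus the higher library in the 3 chow pairs and the lower on HFD. Per kb of gene length, Acta2 was the highest of the 10 members in 5 of the 8 libraries, reaching 77.7 CPM per kb in VAT labelled KO. The log2 ratio of KO to WT was 2.48 (95% interval 2.28 to 2.68) in VAT and 1.75 (1.62 to 1.89) in muscle, both past 2-fold over the whole interval. It was 0.78 (0.59 to 0.97) in SAT on chow and -0.56 (-0.95 to -0.17) on HFD, where it was not.

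Myh11, the smooth muscle myosin heavy chain and the most specific contractile marker of the list (chr16:14194535-14291372), was higher in KO in each of the 4 pairs. WT and KO held 14 and 17.0 CPM in SAT on HFD, 4.66 and 39.4 CPM in SAT on chow, 20.2 and 97.9 CPM in VAT, and 11.5 and 78.3 CPM in muscle. The 3 KO libraries on chow lay above every other library. Log2 ratios were 3.07 (2.74 to 3.44), 2.28 (2.05 to 2.51) and 2.76 (2.54 to 2.99) in the chow pairs of SAT, VAT and muscle. On HFD the ratio was 0.28 (-0.08 to 0.65).

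Tagln (transgelin, an actin-binding protein of smooth muscle) and Cnn1 (calponin, which restrains the myosin motor) were scarce. Tagln had 0 counts in WT SAT on HFD and between 12 and 50 counts in the other 7 libraries. Of its 100-base transcript windows, 48.3% also occur in Gm48529 or Pcsk7 on the opposite strand. The use of strand in counting was not given in the sources used here, so Tagln counts are uncertain. Cnn1 had 0 counts in both libraries of SAT on HFD. WT muscle held 2 counts and KO muscle 50, a ratio of 4.57 on the log2 scale (2.97 to 7.99). In SAT on chow it was lower in KO, with 43 counts in WT and 21 in KO, and in VAT it measured 1.23 and 3.39 CPM.

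Rgs5, a regulator of G protein signalling abundant in pericytes (chr1:169655501-169695813), was the most abundant pericyte gene per kb in 7 of the 8 libraries. It measured 51.0 CPM in WT and 43.9 CPM in KO SAT on HFD, 7.19 and 43.3 CPM in SAT on chow, 65.1 and 238 CPM in VAT, and 69.6 and 73.2 CPM in muscle. WT SAT on chow was the lowest library and VAT labelled KO the highest. The log2 ratio was 2.58 (2.31 to 2.88) in SAT on chow and 1.87 (1.74 to 2.0) in VAT. In muscle it was 0.07 (-0.05 to 0.20), with Acta2 and Myh11 past 2-fold in the same libraries.

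Pdgfrb, the receptor through which EC recruit mural cells, is also expressed by fibroblasts. It stood at 47.1 and 40.1 CPM (WT and KO) in SAT on HFD, 9.37 and 46.9 CPM in SAT on chow, 22.7 and 73.2 CPM in VAT, and 9.70 and 26.6 CPM in muscle. KO was higher in every chow pair, with log2 ratios of 2.32 (2.07 to 2.58), 1.68 (1.47 to 1.91) and 1.45 (1.18 to 1.73). Cspg4 encodes the NG2 proteoglycan of pericyte membranes. It had 0 counts in WT SAT on either diet, against 48 counts in KO on HFD and 86 on chow, and it measured 4.25 and 12.2 CPM (WT and KO) in VAT and 4.61 and 13.6 CPM in muscle. Taking 3 counts as the floor, KO was at least 8.42-fold higher on HFD and at least 28.6-fold higher on chow. A count of 0 was common at this level: among genes with 20 to 100 counts in the KO library, 30.3% had 0 counts in WT on HFD and 13.03% on chow.

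Kcnj8 and Abcc9 encode the pore (Kir6.1) and the regulatory subunit (SUR2) of the vascular KATP channel and lie 16247 bases apart on chromosome 6. Kcnj8 measured 3.46 and 0.237 CPM (WT and KO, the latter from 3 counts) in SAT on HFD, 8.89 and 2.53 CPM in SAT with chow, 5.37 and 18.5 CPM in VAT, and 3.33 and 5.22 CPM in muscle. Abcc9 measured 13.7 and 17.7 CPM, 2.12 and 14.1 CPM, 13.5 and 49.9 CPM, and 5.70 and 12.5 CPM in the same order. Both genes were thus called higher in VAT labelled KO, whereas in SAT on chow Kcnj8 was called lower in KO and Abcc9 higher. On HFD Kcnj8 was called lower, and the Abcc9 ratio, 0.37 on the log2 scale (0.01 to 0.73), was not past 2-fold. Per kb, the ratio of Abcc9 to Kcnj8 was 0.0725 in WT SAT on chow and 22.6 in KO SAT on HFD, and between 0.520 and 1.70 in the other 6 libraries.

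Des, the intermediate filament of muscle cells, did not follow the other members. WT and KO held 11.4 and 1.74 CPM in SAT on HFD, 6.95 and 8.80 CPM in SAT on chow, 30.5 and 29.1 CPM in VAT, and 21.2 and 11.3 CPM in muscle. Its log2 ratio was -2.68 (-3.47 to -2.01) on HFD and -0.90 (-1.19 to -0.63) in muscle. Skeletal fibre markers were lower in KO in every pair, with sums of 68.9 and 9.02 CPM on HFD and 38.0 and 13.8 CPM in muscle. In SAT on chow they summed to 40.1 and 21.8 CPM, where Des was not lower in KO. In VAT they summed to 149 and 11.8 CPM, where Des hardly differed. Their part in the result was not tested.

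**Figure D1:**
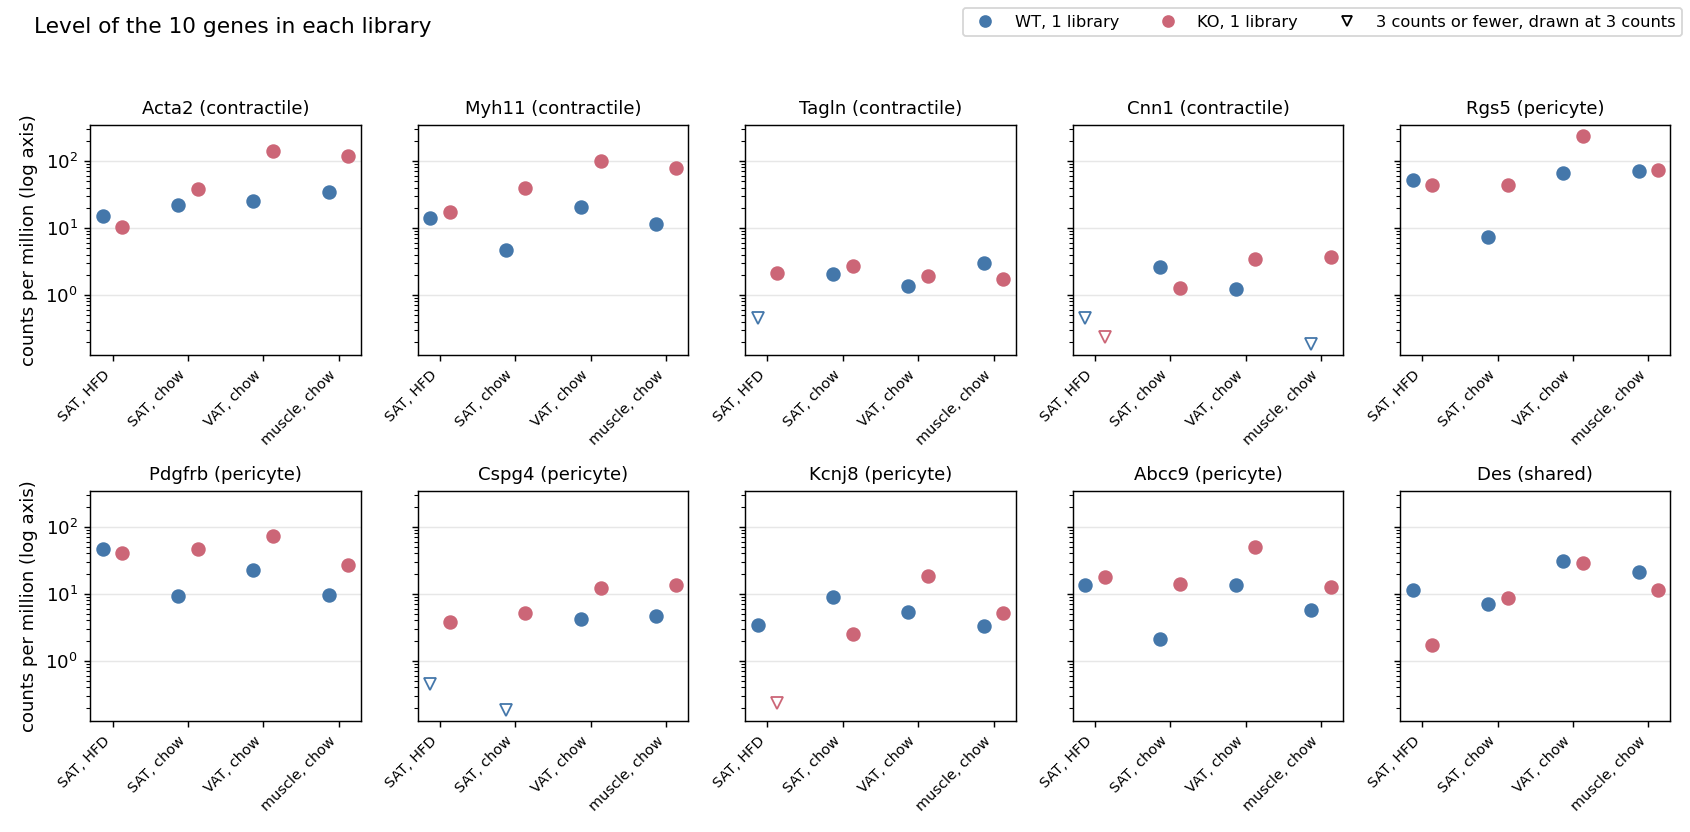
CPM (log axis) of each of the 10 genes in the 8 libraries, 1 point per library, WT in blue and KO in red; triangles mark 3 counts or fewer, drawn at 3 counts. Myh11 is higher in KO in all 4 pairs, and Rgs5 and Acta2 peak in VAT labelled KO at 238 and 138 CPM.

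Genotype was compared within each pair by calling a gene where the whole 95% interval of the KO to WT ratio lay beyond 2-fold. In VAT, 6 of the 10 members were called higher in the library labelled KO (Acta2, Myh11, Rgs5, Pdgfrb, Kcnj8 and Abcc9) and 0 lower, against 2.4% of all 16439 genes higher and 2.09% lower. In muscle, 5 were higher (Acta2, Myh11, Cnn1, Pdgfrb and Cspg4) and 0 lower, against 2.75% and 2.05% of all genes. In SAT on chow, 5 were higher (Myh11, Rgs5, Pdgfrb, Cspg4 and Abcc9) and 1 lower (Kcnj8), against 19.0% and 11.7%. In SAT on HFD, Tagln and Cspg4 were higher and Kcnj8 and Des lower, against 12.7% and 11.1%; Cnn1 had too few counts there. The median log2 ratio of the tested members was 1.73 in VAT, 1.29 in muscle, 1.55 in SAT on chow and -0.22 in SAT on HFD, and that of all genes lay between -0.01 and 0.04.

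The SAT chow pair differed most over all genes, and its ratios moved with gene length: the median was -0.51 for genes under 2000 bases and 0.30 for those of 4000 bases or more. With each gene set against others of like length, Kcnj8 was no longer past 2-fold, at -1.32 (-1.86 to -0.83), and the 5 higher calls held.

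**Figure D2:**
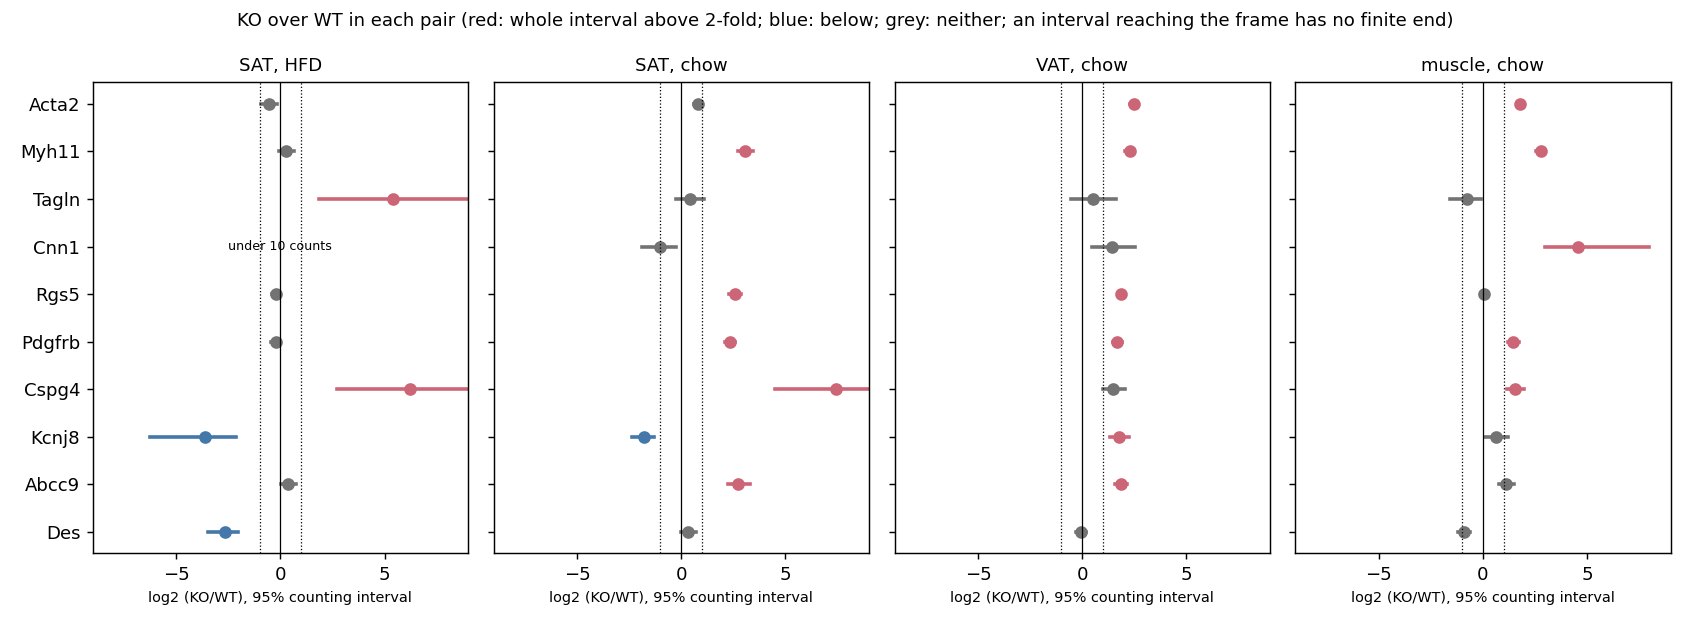
Log2 ratio of KO to WT for each gene in each pair, with 95% counting intervals; dotted lines mark 2-fold. In VAT 6 of 10 and in muscle 5 of 10 intervals lie wholly above 2-fold, whereas on HFD 2 lie above and 2 below.

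Over all 4 pairs, edgeR's quasi-likelihood test with tissue and diet as a block called 0 of the 10 members after Benjamini-Hochberg adjustment, with adjusted p = 0.9999 for each. It called 1 of 16971 genes higher (0.00589%) and 0% lower. Since each group had 1 library, p and SE in this fit rest on how the KO to WT difference varied between the 4 pairs. They do not measure variation between mice. The same holds for the tissue and diet comparisons below, which come from the same fit. At an unadjusted p under 0.05, 5 members were higher in KO and 0 lower, against 1.04% and 0.601% of all genes. These were Myh11 (log2 2.15 ± 0.47, SE), Abcc9 (1.52 ± 0.45), Pdgfrb (1.33 ± 0.42), Acta2 (1.15 ± 0.48) and Cspg4 (3.40 ± 1.29). Rgs5 stood at 1.06 ± 0.49. Kcnj8 and Des had negative estimates, -0.63 ± 1.04 and -0.76 ± 0.53. Without the VAT pair, 3 members rather than 5 had an unadjusted p under 0.05. DESeq2 called 1 member, Myh11, at 2.17 with an adjusted p of 0.0106 by the Wald test.

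Sums of markers of other cells also differed between the libraries of a pair. Fibroblast and progenitor markers, 12 genes of which none was at 0, summed to 1443 and 4382 CPM (WT and KO) in SAT on chow, 2045 and 3957 CPM in VAT and 1399 and 2486 CPM in muscle, but to 3513 and 3141 CPM on HFD. Their direction was that of the median of the pericyte members in each pair, and their part in the result was not tested. EC markers summed to 429 and 413 CPM on HFD, 658 and 811 CPM in SAT on chow, 2829 and 2180 CPM in VAT and 2562 and 3049 CPM in muscle, the direction of the fibroblast sums in all pairs but VAT. Leukocyte sums were lower in KO SAT on chow, at 3754 and 1678 CPM for lymphocyte, 825 and 426 CPM for macrophage and 230.1 and 51.8 CPM for neutrophil markers. In muscle, macrophage markers summed to 684 and 321 CPM and satellite cell markers to 43.7 and 7.54 CPM. Across the pairs, 5 of 8 macrophage markers were lower in KO and 1 higher at an unadjusted p under 0.05. The part of these cells in the members' differences was not tested. Mammary myoepithelial cells also make Acta2, Myh11 and Cnn1, and inguinal fat can hold them. In VAT, where Acta2 and Myh11 differed, the keratins Krt14, Krt5 and Krt17 that define those cells had 0 counts in both libraries, whereas Oxtr, of the same list, had 2 counts in WT and 26 in KO and was called higher, and Trp63 had 4 and 9. In SAT on chow, Krt14 had 76 counts in WT and 86 in KO, and Krt5 78 and 49. The part of these cells was not tested.

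Contractile against pericyte genes were compared by the share of contractile counts among the counts of both sets, leaving out Des. The share was 20.2% in WT (exact 95% interval 17.7 to 22.9%) and 21.8% in KO (19.9 to 23.8%) of SAT on HFD, the lowest pair. It was 53.2% (49.99 to 56.4%) and 42.0% (40.3 to 43.7%) in SAT on chow, 30.0% (27.6 to 32.5%) and 38.2% (37.2 to 39.2%) in VAT, and 34.7% (32.7 to 36.6%) and 60.5% (59.0 to 61.9%) in muscle. KO had the larger share in VAT and muscle and the smaller in SAT on chow, and on HFD the intervals overlapped. As a log2 odds ratio of KO to WT, the difference was 1.53 (1.38 to 1.68) in muscle, 0.53 (0.35 to 0.71) in VAT, -0.65 (-0.86 to -0.44) in SAT on chow and 0.14 (-0.15 to 0.43) on HFD. The SAT chow value rested on Acta2: without it the log2 odds ratio was 0.20. The share was taken from counts without a correction for gene length, with which the ratios of that pair moved. Against genes of like length, the log2 ratio of Acta2 there was 1.14 rather than 0.78, and that of Myh11 2.75 rather than 3.07. The effect of gene length on the share was not tested. The VAT value turned to -0.02 when Des was counted as contractile. The muscle value fell to 0.71 without Rgs5.

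Per kb, the 4 contractile genes summed to 17.7 CPM per kb in VAT labelled WT and 92.8 in VAT labelled KO, and the 5 pericyte genes to 22.5 and 79.8. In muscle the contractile sum was 22.6 in WT and 78.2 in KO, whereas the pericyte sum was 19.5 and 25.6. Both sums were thus higher in VAT labelled KO. In muscle Rgs5 made up most of the pericyte sum and stood at 1.05-fold, while Pdgfrb, Cspg4, Abcc9 and Kcnj8 stood at 2.74-, 2.94-, 2.18- and 1.56-fold (KO over WT).

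**Figure D3:**
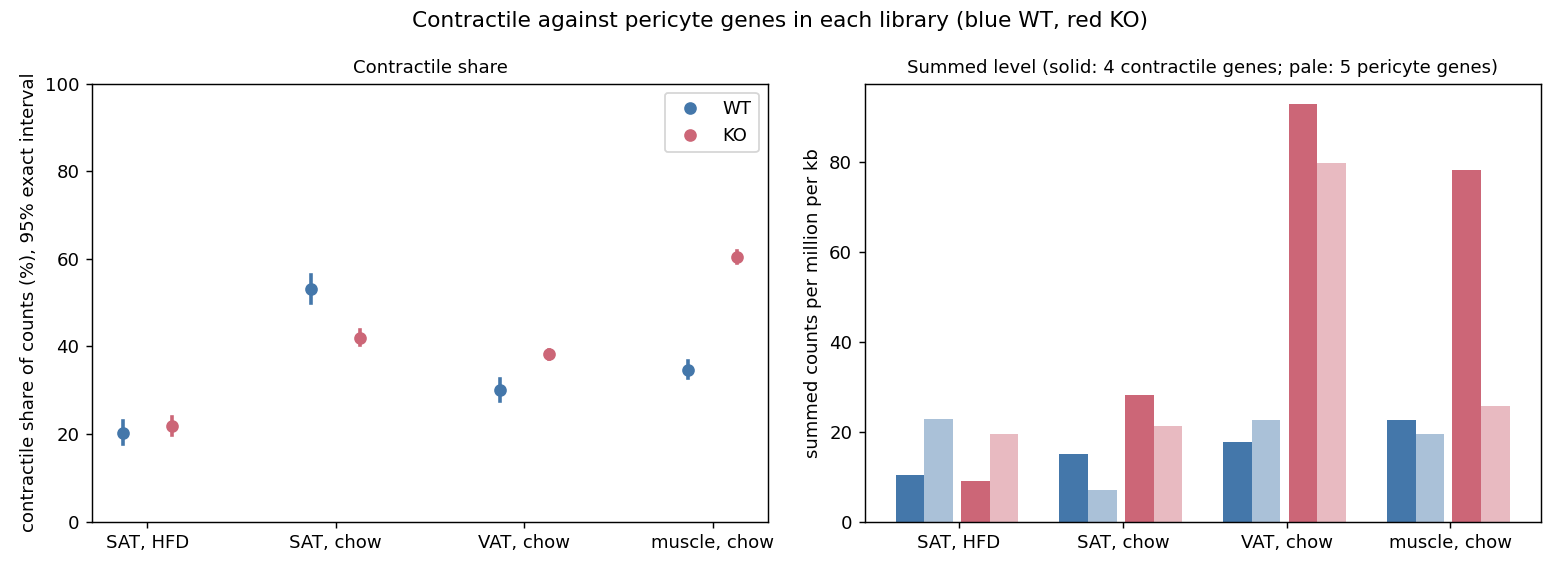
Left, contractile share of counts (%) in each library with its exact 95% interval; right, summed CPM per kb of the 4 contractile (solid) and 5 pericyte genes (pale), WT in blue and KO in red. The share is highest in KO muscle at 60.5% and lowest in SAT on HFD.

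Tissues on chow were compared over both genotypes. Of the 10 members, 8 had their highest mean in VAT, and Tagln and Cspg4 had theirs in muscle. The WT and KO libraries of a tissue often spanned the gap to the next, and Des alone had both VAT libraries above all 6 others. The share of all genes with either pattern was not computed. Among WT libraries on chow, VAT was highest for Myh11, Pdgfrb, Abcc9 and Des only. Acta2 (24.9 CPM in VAT, 34.7 in muscle) and Rgs5 (65.1 and 69.6) were higher in WT muscle. Kcnj8 (5.37 CPM in VAT, 8.89 in SAT) and Cnn1 (1.23 and 2.60) were higher in WT SAT. Between VAT and SAT, edgeR called 0 members after adjustment, against 3.31% of all genes higher and 1.74% lower. At an unadjusted p under 0.05, 4 were higher in VAT and 0 lower, against 10.5% and 9.78%: Rgs5 (log2 2.67 ± 0.68, adjusted p = 0.0689), Abcc9 (2.12 ± 0.62, 0.104), Des (1.87 ± 0.72, 0.200) and Myh11 (1.63 ± 0.63, 0.197). These calls depended on the test, the filter and single libraries. With all 8 libraries, DESeq2's Wald test called Rgs5 and Abcc9 (adjusted p = 0.000751 and 0.0126) among 2280 genes called. When genes of at least 1 count were kept, edgeR called all 4 among 2116 genes, against 857 genes in its main fit. Without KO SAT on chow, the log2 estimates were 3.98 for Rgs5 and 3.11 for Abcc9. Rgs5 stood at 2.74 without KO SAT on HFD or without KO muscle. Myh11 stood at 1.73 without WT SAT on HFD and at 1.72 without KO SAT on HFD. EC markers were higher in VAT for 10 of 14 genes after adjustment. Macrophage markers were higher for 8 of 8, with sums of 8483 and 8425 CPM in VAT labelled WT and KO. Lymphocyte markers were lower in VAT for 9 of 10. The part of these cells in the members' difference was not tested.

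Between muscle and SAT, 0 members passed adjustment, against 1.11% of all genes higher and 0.147% lower. Rgs5 was the 1 member at an unadjusted p under 0.05, higher in muscle by 1.90 ± 0.69 (7.06% of genes higher, 4.43% lower). Its estimate was 3.05 without KO SAT on chow. Between muscle and VAT, again 0 members passed, against 0.884% and 1.05%. Pdgfrb (-1.36 ± 0.57) and Abcc9 (-1.63 ± 0.61) were lower in muscle at an unadjusted p under 0.05 (6.33% of genes higher, 6.42% lower). Acta2 hardly separated these tissues, at 0.00 ± 0.62. After adjustment, 8 of 8 neutrophil markers were higher in muscle than in SAT, and 8 of 8 than in VAT. They summed to 26311 CPM in WT and 30604 CPM in KO muscle, where EC markers summed to 2562 and 3049 CPM. The part of neutrophils in the members' levels was not tested.

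HFD was compared with chow in SAT. No member and no gene passed adjustment (0% higher, 0% lower), and at an unadjusted p under 0.05 Abcc9 was higher on HFD and Cnn1 lower, against 0.548% and 7.43% of all genes. Abcc9 differed by 1.46 ± 0.63, but WT on chow alone was low. Cnn1 had 0 counts in both HFD libraries and 43 and 21 in the chow libraries, so its fitted change is not a fold. DESeq2 called 246 genes and 0 members for this diet comparison. The EC markers were lower on HFD at an unadjusted p under 0.05 for 8 of 14 genes, and 0 were higher.

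**Figure D4:**
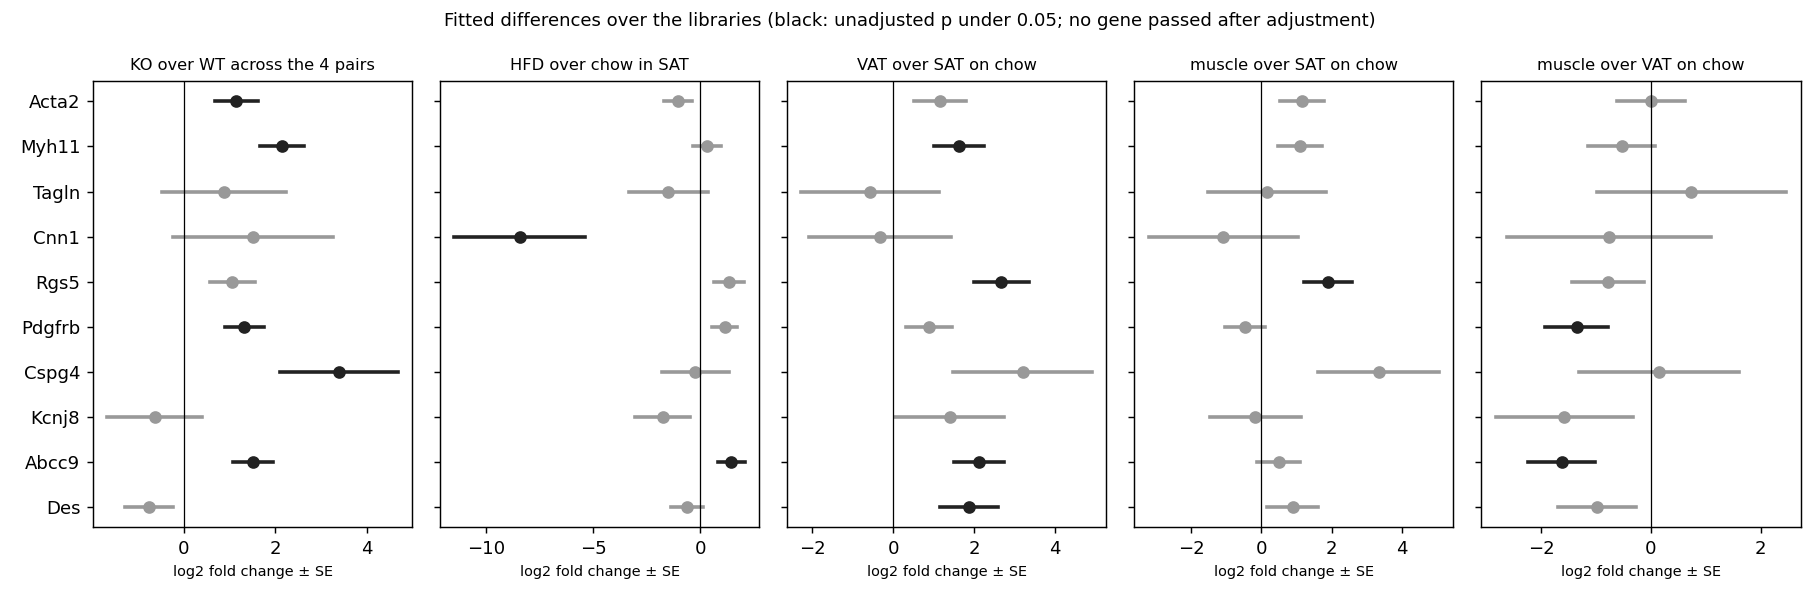
Fitted log2 fold change ± SE of each gene in the 5 comparisons, black where the unadjusted p is under 0.05. Estimates for KO over WT are positive for 8 of 10 genes, none passes adjustment, and the Cnn1 estimate for HFD comes from 0 counts in both HFD libraries.

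Other genes of the same machinery were counted from wider lists. Of 19 tested genes of the contractile apparatus, 15 had positive KO estimates with a median log2 of 0.52, and 0 passed adjustment; 4 were higher and 0 lower at an unadjusted p under 0.05, against 1.04% and 0.601% of all genes, including Mylk, the kinase that starts contraction, at 1.11 ± 0.29. Of 22 tested pericyte genes, 20 were positive with a median of 0.81, 5 were higher and 0 lower at an unadjusted p under 0.05, and 0 passed adjustment. The median over all genes was 0.02. This was not particular to mural genes. Of 12 tested fibroblast and progenitor markers, 11 were positive with a median of 0.69. Of these markers, 5 were higher and 0 lower at an unadjusted p under 0.05, and 0 passed adjustment. Among the pericyte genes, Notch3, the receptor that maintains mural cells, was at 1.13 ± 0.38, with 26.9 CPM in VAT labelled WT and 122 CPM in VAT labelled KO. Of 12 transcriptional regulators of smooth muscle, 9 were positive and 0 had an unadjusted p under 0.05; Myocd, the coactivator of CArG box genes, had at most 36 counts in any library. Between VAT and SAT, 2 apparatus genes passed adjustment (Mylk 1.99 ± 0.42 and Vcl 1.81 ± 0.37). So did 2 genes of the pericyte list (Ednrb 5.27 ± 0.46 and Steap4 1.86 ± 0.43). All were higher in VAT, against 3.31% of all genes higher and 1.74% lower. Ednrb measured 526 and 533 CPM in VAT labelled WT and KO, and so did not follow Rgs5 or Notch3 in that pair.

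Relatives of the members varied in direction. Acta1, the skeletal muscle actin, measured 91.0 CPM in VAT labelled WT and 1.18 CPM in VAT labelled KO, and its KO estimate was -3.27 ± 0.75. No 100-base window of the Acta2 transcripts occurs letter for letter in those of another gene. Windows with mismatches were not compared, so this does not show how reads from the other actins were placed. Actg2, the other smooth muscle actin, was called higher in VAT labelled KO, at 2.45 on the log2 scale (1.62 to 3.48), and on HFD, where WT had 0 counts and KO had 42. Its ratio in chow-fed SAT was -0.64 (-1.27 to -0.05). Pdgfra, the other PDGF receptor and a fibroblast marker, had the sign of Pdgfrb in each pair, with log2 ratios of -0.46 on HFD, 2.70 in SAT on chow, 0.89 in VAT and 1.03 in muscle. Kcnj11, the pore of the KATP channel in endocrine cells, had at most 10 counts in any library. Pdgfb, the ligand made by EC, measured 18.5 and 15.8 CPM (WT and KO) in SAT on HFD, 35.4 and 28.9 CPM in SAT on chow, 73.8 and 68.0 CPM in VAT, and 77.2 and 97.3 CPM in muscle. None of these was past 2-fold.

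Likeness over the 8 libraries is given as a description, since the points share libraries and scaling. Among 12368 genes averaging 50 counts or more, those most like Acta2 in log2 CPM were Ighv11-2 (r = 0.947), Grip2, P3h1, Hebp1 and Myl9 (r = 0.920), the last a myosin light chain of smooth muscle. Those most like Rgs5 were Arhgef28 (r = 0.963), Irf2bp2, Mpdz, Enah and Gm11427 (r = 0.943). Among the members, Pdgfrb and Abcc9 were most alike (r = 0.903), and Tagln and Pdgfrb least (r = -0.325).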

How the data were processed

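RNAseq was done on sorted GFP+ cells in 8 libraries. The authors deposited whole-number counts per Ensembl gene, with no normalization. Per the labels, RNA was isolated with a column kit, and the submitters' processing notes name HISAT2 2.0.5 and GRCm38 (mm10); the paper gives Trizol. The counting program and use of strand are not given in the sources used here.

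Counts were scaled by TMM (edgeR 4.0.16) over genes averaging 10 counts or more. Within a pair, the log2 ratio used a prior count of 0.5 and an exact conditional binomial (Clopper-Pearson) 95% interval, which covers counting error only; bounds used a floor of 3 counts per library. Across libraries, edgeR's quasi-likelihood test, with dispersions estimated robustly, fitted pair and genotype, with Benjamini-Hochberg adjustment at 0.05. The SE given was derived from that test, as the absolute log2 change divided by the square root of its F statistic. The pair block is the tissue and diet of the labels. After removal of genotype means, WT and KO of a pair correlated by 0.253, 0.0568, 0.560 and 0.516 (in the order SAT with HFD and with chow, then VAT, then muscle). WT SAT on chow correlated more with KO SAT on HFD (0.174) than with its own KO library. Every other WT library correlated most with its own KO library. The steps were tested on simulated data. Alternatives were other scalings, filters, priors, a gene length correction, DESeq2 1.42.0 and leaving out libraries or pairs.

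All 10 members are named, with related genes by their calls and, for genes named at an unadjusted p, after their values were seen. The members and lists were chosen with earlier results of these data known.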

Additional observations from a re-analysis of the deposited data

Results flagged for a closer look

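Kcnj8 differed between tissues in the direction of its genotype difference. The log2 ratio of KO to WT was -3.60 in SAT on HFD and -1.80 in SAT on chow, both wholly below 2-fold, and 1.77 in VAT, wholly above 2-fold. The difference between the tissues was not tested, since each group had 1 library. The VAT direction rests on labels that the few Tert counts did not back and cannot settle (3 in the library labelled WT, 9 in that labelled KO). With the labels exchanged, the Kcnj8 sign in VAT would turn, and these 3 pairs would share a direction. The muscle pair would still differ from them, with Kcnj8 higher in KO at 0.64 (0.12 to 1.18). The same exchange would turn Acta2, Myh11, Rgs5, Pdgfrb and Abcc9 in VAT away from their direction in SAT on chow. The SAT chow value was no longer past 2-fold against genes of like length.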

How the results depend on the processing

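No alternative turned a within-pair call of a member, and scalings and the prior count changed no count of called members by more than 1.5 times. The gene length correction took the members called lower in SAT on chow from 1 to 0. The comparisons across libraries depended on the test, the filter and single libraries; the cause was not tested. With all genes of at least 1 count, members called after adjustment were 1 for genotype, 4 for VAT against SAT, 1 for muscle against SAT; members at an unadjusted p under 0.05 were 5 for HFD against chow, 7 for VAT against SAT, 4 for muscle against SAT; and all genes called were 41 for genotype, 289 for HFD against chow, 2116 for VAT against SAT, 971 for muscle against SAT, 1166 for muscle against VAT, against 1 for genotype, 0 for HFD against chow, 857 for VAT against SAT, 213 for muscle against SAT, 328 for muscle against VAT. DESeq2's Wald test called 1 for genotype, 2 for VAT against SAT, 1 for muscle against SAT of the members and 19 for genotype, 246 for HFD against chow, 2280 for VAT against SAT, 1053 for muscle against SAT, 1253 for muscle against VAT of all genes, with 4 for HFD against chow, 2 for muscle against SAT at an unadjusted p. For HFD, members at an unadjusted p were 0 for genes averaging 50 counts and 1 without robust dispersions; scaling by library totals left 1 for muscle against VAT, where Acta2 moved to 0.11. For genotype, 5 members at an unadjusted p became 3 without the VAT pair and 2 without the block of tissue and diet. All genes called were 0 with upper quartile scaling, 0 without VAT, 2 without muscle and 0 without the block. Kcnj8 turned positive without SAT on HFD (0.26) and without the block (0.33). With 1 library left out, HFD against chow called from 0 to 308 genes and 0 members, with 0 to 5 members at an unadjusted p. Log2 estimates changed sign for Myh11 (-0.93 to 1.36), Cspg4 (-5.67 to 5.55), Des (-1.97 to 0.40). With 1 library left out, VAT against SAT called from 93 to 3449 genes and from 0 to 2 members, with 1 to 6 members at an unadjusted p. Log2 estimates changed sign for Cnn1 (-1.66 to 2.34), Kcnj8 (-0.55 to 2.74). With 1 library left out, muscle against SAT called from 37 to 1761 genes and from 0 to 1 members, with 0 to 3 members at an unadjusted p. Log2 estimates changed sign for Cnn1 (-3.84 to 0.98), Kcnj8 (-1.18 to 0.80), Abcc9 (-0.11 to 1.43), Tagln (-1.38 to 1.05), Pdgfrb (-0.97 to 0.31). With 1 library left out, muscle against VAT called from 41 to 1207 genes and 0 members, with 0 to 2 members at an unadjusted p. Log2 estimates changed sign for Acta2 (-0.68 to 1.12), Cspg4 (-2.19 to 2.46), Kcnj8 (-2.95 to 0.82), Tagln (-0.79 to 1.62), Cnn1 (-4.04 to 0.59). Log2 odds of the contractile share without Acta2 were 0.58 (SAT on HFD), 0.20 (SAT on chow) and 2.02 (muscle). With Des they were -0.26 (SAT on HFD), -0.0232 (VAT) and 1.09 (muscle), and without Rgs5 -0.38 (SAT on chow) and 0.71 (muscle). Leaving out KO SAT on chow gave the highest all-gene counts for HFD, for VAT against SAT and for muscle against SAT. Tagln, Cnn1, Cspg4 and Kcnj8 had 3 counts or fewer in at least 1 library, so counting error is large there.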
